A study of Mus musculus with 10 samples.

Results

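The genes described here encode the lamins (Lmna, Lmnb1, Lmnb2), proteins of the inner nuclear membrane (Lbr, Emd, Tmpo, Tmem43) and members of the LINC complex (Sun1, Sun2, Syne2). They are 10 genes chosen by name. A gene was taken from the basal and the suprabasal table where the locus had the status OK and its gene field named the gene. All 10 were found once in each table, alone on their locus, among 10583 loci with that status in both tables. The study sequenced RNA of skin keratinocytes that flow cytometry had separated into basal and suprabasal cells, taken from FVB/N mice on postnatal day 4. Each layer had 3 wild type samples and 2 samples of bitransgenic HGPS (BT) mice, 10 in all. The deposited tables give 1 level per group, read as FPKM (fragments scaled by transcript length and library size), so levels of different genes can be compared. No spread between samples and no depth per sample can be given, and each layer's table has its own normalization.

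HGPS is Hutchinson-Gilford progeria, in which a truncated lamin A called progerin is made. The labels name neither the transgenes nor their promoter. From knowledge of this mouse line rather than from the labels, a tetracycline-controlled human lamin A minigene with the HGPS mutation is driven in cells that use a keratin 5 promoter. The labels do not say whether the wild type animals carried either transgene, or whether the samples came from single animals. The title of the series names nuclear envelope proteins and where they lie in the cell. RNA levels do not measure the place of a protein.

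Lamins are intermediate filament proteins that form a meshwork under the inner nuclear membrane. A-type lamins come from Lmna by alternative splicing and become abundant in many differentiated cells, while B-type lamins come from Lmnb1 and Lmnb2 and keep a farnesyl anchor in the membrane. LBR, emerin (Emd) and the LAP2 proteins (Tmpo) tie the lamina and chromatin to the membrane. In the LINC complex, SUN proteins span the inner membrane and bind nesprins of the outer membrane, such as nesprin-2 (Syne2), which reach the cytoskeleton.

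The sort was checked on the labelled cell types. All 10 listed basal keratinocyte genes had a lower level in suprabasal than in basal wild type cells, and 11 of 12 listed differentiation genes a higher one. In bitransgenic cells all 10 basal genes were again lower, and 4 of the 12 differentiation genes were lower too. Krt5 and Krt14 of the basal list were read from loci merged with other keratins, so those values are not of Krt5 or Krt14 alone. Dsg1a of the differentiation list was read from a locus merged with Dsg1c. Genes of the melanocyte list summed to 8.38 FPKM in basal wild type and 12.9 FPKM in basal bitransgenic cells, where 3 of 10 were in the table. In suprabasal cells all 10 were in the table and summed to 2100 FPKM in wild type and 3885 FPKM in bitransgenic cells. Of the 13 immediate early and heat shock loci, 12 had lower levels in bitransgenic basal cells and 13 in bitransgenic suprabasal cells. Their median log2 fold changes were -1.30 and -1.42. At the authors' q (adjusted p) below 0.05, 6 of 13 were called lower in basal and 4 of 13 in suprabasal cells. Over all loci, 1.39% and 0.419% were called lower. The merged locus of Xist, an RNA of female cells, had 0.258 FPKM in wild type and 107.9 FPKM in bitransgenic basal cells, and 0.236 and 102.7 FPKM in suprabasal cells. Y-linked genes were present in both genotypes, and all their loci but 1 of Uty in suprabasal cells had lower levels in bitransgenic cells. Their log2 fold changes ran from -1.32 to -0.61 in basal and from -1.31 to 0.10 in suprabasal cells. Eif2s3y, with the smallest basal fall, had 35.2 FPKM in wild type and 23.0 FPKM in bitransgenic basal cells, and 38.9 and 28.6 FPKM in suprabasal cells. Fibroblast genes summed to 17.4 and 11.8 FPKM in wild type and bitransgenic basal cells (3 of 8 in the table) and to 336 and 524 FPKM in suprabasal cells (6 of 8). In suprabasal cells Vim, which other cell types also express, made up 316 and 492 FPKM of these sums, and the collagen genes and Dcn lay between 1.86 and 10.4 FPKM. Of the leukocyte, endothelial, Schwann cell, muscle and Merkel cell lists, 1 of 10, 1 of 6, 2 of 5, 1 of 6 and 1 of 4 genes were in the basal table, and 1, 0, 4, 0 and 1 in the suprabasal one. The Merkel cell gene, Krt8, is on a merged locus with Krt5 and other keratins, so its value is not that of Krt8. The muscle gene, Tnni2, fell in bitransgenic basal cells, and no other locus of these lists was called. The part of other cell types, handling or sex in the values below was not tested.

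The first question was how these transcripts differed between bitransgenic and wild type cells. In basal cells Tmem43 fell to 0.333 of its wild type level, a call that was lost when the authors' p was readjusted, as described below. The other 9 genes missed the threshold in basal cells. In suprabasal cells none of the 10 passed. With Tmem43, 7 of the 10 had lower deposited levels in bitransgenic cells of both layers (Lmna, Lmnb2, Lbr, Sun1, Sun2 and Syne2 were the others). Of these, Sun2 hardly differed in basal cells (log2 fold change of -0.0035), and Lmna and Sun2 turned in basal cells with centring, described below. Of all loci, 60.3% were lower in basal and 56.6% in suprabasal cells, and the share lower in both was not computed. Emd had higher levels in both layers, and Tmpo hardly differed (log2 fold changes of 0.0010 in basal and 0.019 in suprabasal cells). Lmnb1 was higher in basal and lower in suprabasal cells. A gene was called at the q (adjusted p) below 0.05 in the authors' deposited tables, whose form is that of the Cuffdiff test. By that rule 1 of 10 genes was called in basal cells, against 1.65% of all 11290 loci (1.39% called lower). In suprabasal cells 0 of 10 were called, against 0.471% of 11464 loci (0.419% called lower). No gene of the 10 had an unadjusted p under 0.05 in suprabasal cells, and Tmem43 alone had one in basal cells. Over all loci, 815 of 11464 suprabasal and 867 of 11290 basal loci had such a p, so these counts are near the background.

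The ± beside each log2 fold change is the standard error (SE) implied by the authors' p, and intervals are 95% intervals from it. The SEs of the 10 genes lay between 0.25 and 0.50 in basal and between 0.34 and 0.46 in suprabasal cells. At the median SE an interval leaves 0 only past a 1.68-fold difference in basal and a 1.67-fold difference in suprabasal cells. Of the 10 genes, 8 lay within 1.5-fold of wild type in basal cells and all 10 in suprabasal cells, where 70.1% and 69.3% of all loci did. Their median log2 fold change was -0.14 in basal and -0.24 in suprabasal cells, beside -0.12 and -0.083 over all loci. Of the 10 genes, 7 were below wild type in basal and 8 in suprabasal cells, as were 60.3% and 56.6% of all loci, and in basal cells Lmna (0.037) and Sun2 (0.11) turned positive when fold changes were taken relative to the median of expressed loci.

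**Figure D1:**
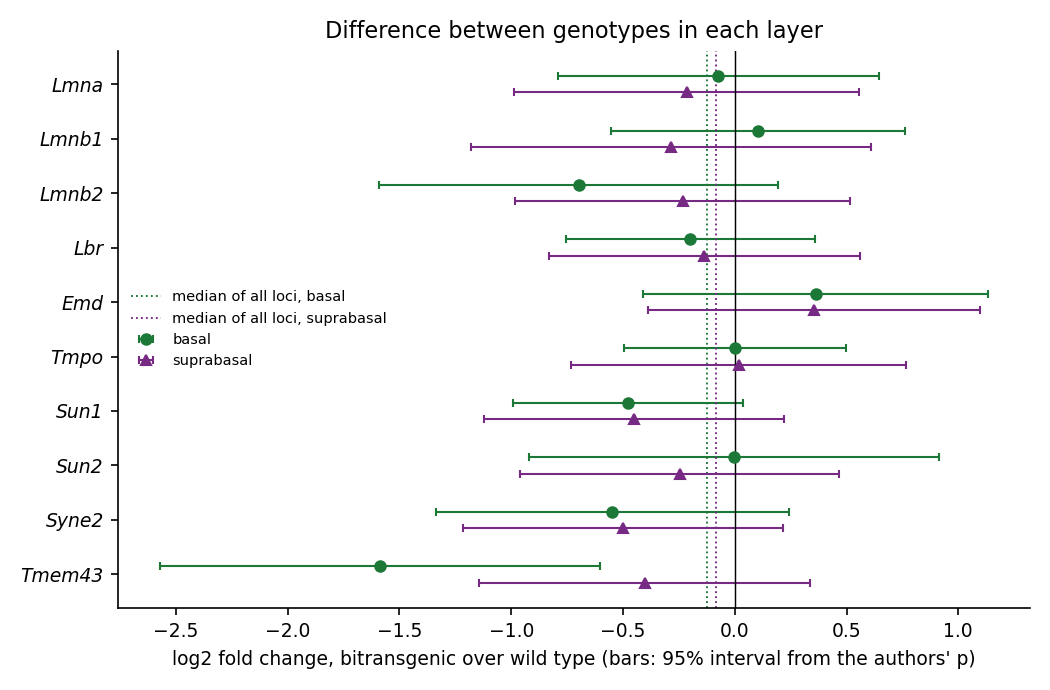
Log2 fold change of each gene, bitransgenic over wild type, in basal (circles) and suprabasal cells (triangles), with 95% intervals implied by the authors' p and the median of all loci as dotted lines. The interval of Tmem43 in basal cells, from -2.57 to -0.60, is the one among the 20 that does not include 0.

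Lmna encodes lamin A and lamin C, and it is the gene whose human form is mutated in HGPS. The mouse gene is on the minus strand of chromosome 3, from 88481050 to 88509956 in mm10. The deposited tables hold 1 value for the whole Lmna locus, so lamin A, lamin C and any fragment of a human transgene that aligned to the mouse gene cannot be told apart.

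Lmna had by far the highest level of the 10 in every group. It stood at 564 FPKM in wild type and 536 FPKM in bitransgenic basal cells, and at 460.2 FPKM in wild type and 397 FPKM in bitransgenic suprabasal cells. The level was above that of 99.0% of loci in wild type basal cells and of 98.7% in wild type suprabasal cells. The difference between genotypes was -0.074 ± 0.37 in basal cells (authors' q 0.940, interval -0.79 to 0.64). In suprabasal cells it was -0.21 ± 0.39 (authors' q 0.960, interval -0.99 to 0.56). Changes of Lmna within these intervals were not detectable here.

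The B-type lamins had lower levels. Lmnb1, on chromosome 18 from 56707813 to 56753424, had 51.0 FPKM in wild type and 54.9 FPKM in bitransgenic basal cells. In suprabasal cells it had 25.3 and 20.7 FPKM. The layers differ more than the genotypes in these 4 values. The log2 fold change was 0.10 ± 0.33 in basal cells (authors' q 0.908) and -0.29 ± 0.46 in suprabasal cells (authors' q 0.943). Lmnb2, on chromosome 10 from 80901203 to 80918245, had the lowest level of the 10 in every group. Its levels were 13.1 FPKM in wild type and 8.05 FPKM in bitransgenic basal cells, and 8.09 and 6.88 FPKM in suprabasal cells. The wild type basal value was the highest of the 4 for this gene, and no spread between samples is known. The log2 fold change of Lmnb2 was -0.70 ± 0.46 in basal cells (authors' q 0.466, interval -1.59 to 0.20) and -0.23 ± 0.38 in suprabasal cells (authors' q 0.946).

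**Figure D2:**
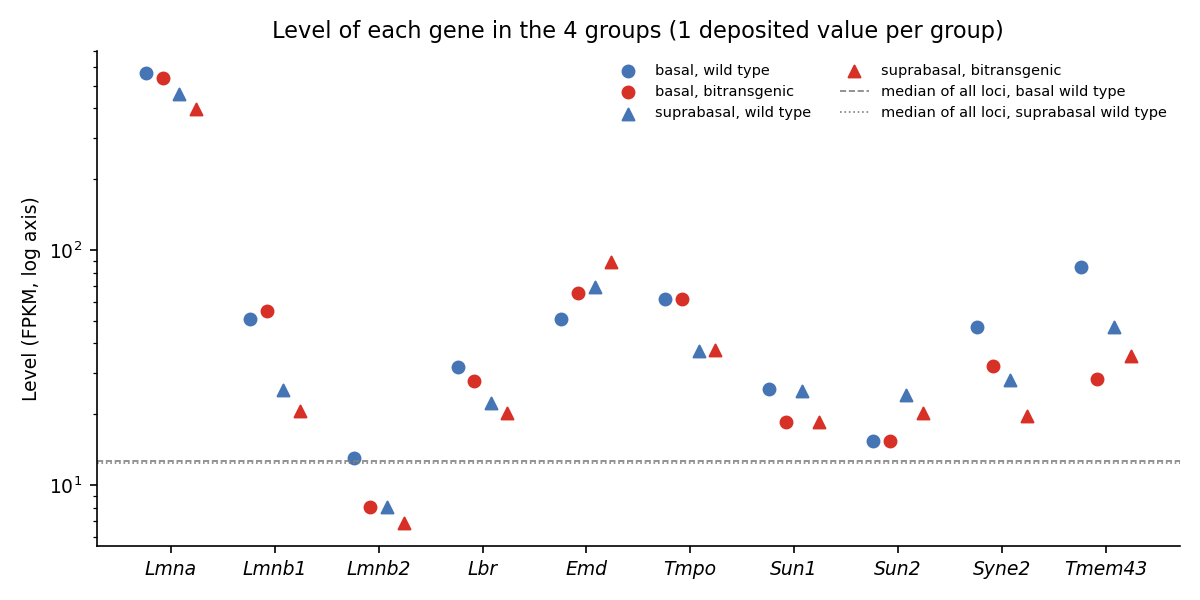
Level in FPKM (log axis) of each gene in the 4 groups, as 1 deposited value per group without error, and the median wild type level of all loci in each layer (12.7 FPKM in basal and 12.4 FPKM in suprabasal cells). Lmna is highest and Lmnb2 lowest in every group, and Tmem43 is the gene whose basal values lie furthest apart.

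Lbr encodes the lamin B receptor, which binds heterochromatin and is also a sterol reductase. Its locus on chromosome 1, from 181815316 to 181842401, had 31.7 FPKM in wild type and 27.6 FPKM in bitransgenic basal cells, and 22.3 and 20.3 FPKM in suprabasal cells. The log2 fold changes were -0.20 ± 0.28 and -0.14 ± 0.35, with authors' q of 0.774 and 0.975. Tmpo encodes the LAP2 proteins, LEM-domain proteins that bind lamins and chromatin. It lies on chromosome 10 from 91147571 to 91181229. It had 61.7 FPKM in both genotypes of basal cells, and 37.0 FPKM in wild type and 37.5 FPKM in bitransgenic suprabasal cells. Its intervals ran from -0.49 to 0.50 in basal and from -0.73 to 0.77 in suprabasal cells, the first being the narrowest among the 20. The Lbr locus overlaps Dnah14 on the opposite strand and the ribosomal RNA gene Gm26004 on its own strand. The Tmpo locus overlaps the long noncoding Gm26765 on the opposite strand.

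Emd encodes emerin, a LEM-domain protein of the inner membrane that binds lamin A. It is X-linked, with a locus from 74254687 to 74261561 that holds the pseudogene Gm14686. It had 50.9 FPKM in wild type and 65.3 FPKM in bitransgenic basal cells, and 69.6 and 89.0 FPKM in suprabasal cells. The bitransgenic level was thus 1.28 times wild type in each layer, with log2 fold changes of 0.36 ± 0.39 (authors' q 0.687) and 0.36 ± 0.38 (authors' q 0.884). Emd had the highest log2 fold change of the 10 in both layers. Since Xist also differed between the genotypes, the other X-linked loci were set beside it: without Xist, 369 loci of the X chromosome had a median of -0.0094 in basal cells and 370 had one of 0.0071 in suprabasal cells. Of these, 48.8% and 50.5% were above 0, and 80 and 86 had a log2 fold change at or above that of Emd, itself included.

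The SUN genes encode the inner membrane side of the LINC bridge. Sun1, on chromosome 5 from 139200421 to 139249840, had 25.7 FPKM in wild type and 18.5 FPKM in bitransgenic basal cells, and 25.2 and 18.4 FPKM in suprabasal cells. Both layers gave almost the same values for each genotype. The log2 fold change was -0.48 ± 0.26 in basal cells (authors' p 0.0700, q 0.466) and -0.45 ± 0.34 in suprabasal cells (authors' p 0.187, q 0.807). The upper end of the basal interval was 0.039, just past 0. Sun2, on chromosome 15 from 79723872 to 79742536, had 15.4 FPKM in both genotypes of basal cells, and 24.1 and 20.3 FPKM in suprabasal cells. Its log2 fold change was -0.0035 ± 0.47 in basal cells (authors' q 0.997) and -0.25 ± 0.36 in suprabasal cells (authors' q 0.937). An antisense gene is annotated across each of the 2 loci. The labels call the libraries strand-specific, and whether strand was used in counting is not given in the sources used here.

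Syne2 encodes nesprin-2, a giant protein whose locus spans 293093 bases of chromosome 12, from 75817834 to 76110926. It had 47.0 FPKM in wild type and 32.1 FPKM in bitransgenic basal cells, and 28.0 and 19.8 FPKM in suprabasal cells. The bitransgenic level was 0.684 of wild type in basal and 0.706 in suprabasal cells. Neither difference passed (-0.55 ± 0.40 with authors' q 0.483, and -0.50 ± 0.37 with authors' q 0.791). A short RNA gene, Mir5101, lies within the locus.

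Tmem43 encodes LUMA, a membrane protein that binds emerin and lamins. It lies on the plus strand of chromosome 6 from 91473703 to 91488459, and no other annotated gene overlaps that locus. It had 85.0 FPKM in wild type and 28.3 FPKM in bitransgenic basal cells, and 46.8 and 35.4 FPKM in suprabasal cells. Wild type basal cells had the highest and bitransgenic basal cells the lowest value, with both suprabasal groups between. Tmem43 fell by 1.59 on the log2 scale in basal cells (SE 0.50, interval -2.57 to -0.60, authors' p 0.0016 and q 0.0371). In suprabasal cells the log2 fold change was -0.40 ± 0.38 (authors' q 0.855). Among all basal loci, 4.69% had a lower log2 fold change and 131 loci had a p as small or smaller. The basal call was lost when the Benjamini-Hochberg method was applied to the authors' p over the 11290 loci (adjusted p 0.138), and also relative to the median of expressed loci (log2 fold change -1.48, adjusted p 0.256).

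The 250 bases before the RefSeq start of Tmem43 (GRCm38.p6, chr6:91473457-91473706, plus strand) are shown as the promoter of the called gene, with the letters of a GC box in capitals.
Tmem43 promoter: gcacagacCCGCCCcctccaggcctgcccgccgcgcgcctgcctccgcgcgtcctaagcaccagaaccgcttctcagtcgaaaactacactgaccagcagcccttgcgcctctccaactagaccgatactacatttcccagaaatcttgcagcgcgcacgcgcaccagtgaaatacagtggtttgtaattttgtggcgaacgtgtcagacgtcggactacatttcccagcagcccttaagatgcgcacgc
The GC box was searched as GGGCGG on both strands, and it occurs once here, as CCGCCC. It is in 32.7% of the 32851 promoters of the same length. At least 1 promoter of each of the 9 genes with an entry holds it, and so it is for 15 of 18 cell cycle genes with an entry. These are counts of genes, which can have several promoters, so they cannot be set directly against that share. The letters CCAAT, found in 33.8% of promoters on either strand, are in those of Lmna, Lbr, Emd, Tmpo, Sun1 and Sun2 and not in this window of Tmem43.

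The order of the genes by level shows the place of Tmem43. In wild type basal cells the order was Lmna, Tmem43, Tmpo, Lmnb1, Emd, Syne2, Lbr, Sun1, Sun2 and Lmnb2. In bitransgenic basal cells Tmem43 was in place 6, below Emd, Tmpo, Lmnb1 and Syne2. In wild type suprabasal cells the order was Lmna, Emd, Tmem43, Tmpo, Syne2, Lmnb1, Sun1, Sun2, Lbr and Lmnb2. The neighbours Lmnb1 and Emd in wild type basal cells differed by less than 1 FPKM, and so did Lmnb1 and Sun1 in wild type suprabasal cells. Without a spread over samples, no difference between neighbours in these orders can be tested.

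The next question was how the genes differ between the layers. In wild type cells 8 of the 10 had a lower level in suprabasal than in basal cells, and in bitransgenic cells 7 of 10. Lmnb1 had the lowest ratio of suprabasal to basal level in both genotypes, 0.496 in wild type and 0.378 in bitransgenic cells. Tmpo (0.601 and 0.608), Syne2 (0.596 and 0.615), Lbr (0.703 and 0.734) and Lmna (0.816 and 0.740) were also lower in suprabasal cells of both genotypes. Lmnb2 had ratios of 0.619 in wild type and 0.855 in bitransgenic cells. Sun1 had 0.980 and 0.998, and its log2 ratio turned just above 0 with centring (0.0083 and 0.025). Sun2 (1.56 and 1.32) and Emd (1.37 and 1.36) were higher in suprabasal cells. These ratios set side by side tables that were normalized separately and carry no test.

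The median ratio of the 10 genes was 0.661 in wild type and 0.798 in bitransgenic cells, beside 0.975 and 0.982 over all loci. Lmnb1 alone lay past 2-fold, in either genotype. It was 1 of 10 genes at least 2-fold lower, where 6.88% of all loci were in wild type and 8.49% in bitransgenic cells. None of the 10 was at least 2-fold higher, where 7.55% and 10.9% of all loci were. In wild type the ratio of Lmnb1 was at the edge, and with levels centred between the layers it fell short of 2-fold (log2 ratio -0.98, against -1.01 as deposited). Cell cycle genes were also lower in suprabasal cells. All 20 on the list had a lower level in suprabasal cells of both genotypes, with a median ratio of 0.466 in wild type and 0.414 in bitransgenic cells. The proliferation marker Mki67 had ratios of 0.329 and 0.335. The summed melanocyte markers differed between the layers as given above. The part of dividing cells or of other cell types in the ratios of the lamins was not tested, and fewer cells of a type cannot be told apart from less RNA per cell.

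**Figure D3:**
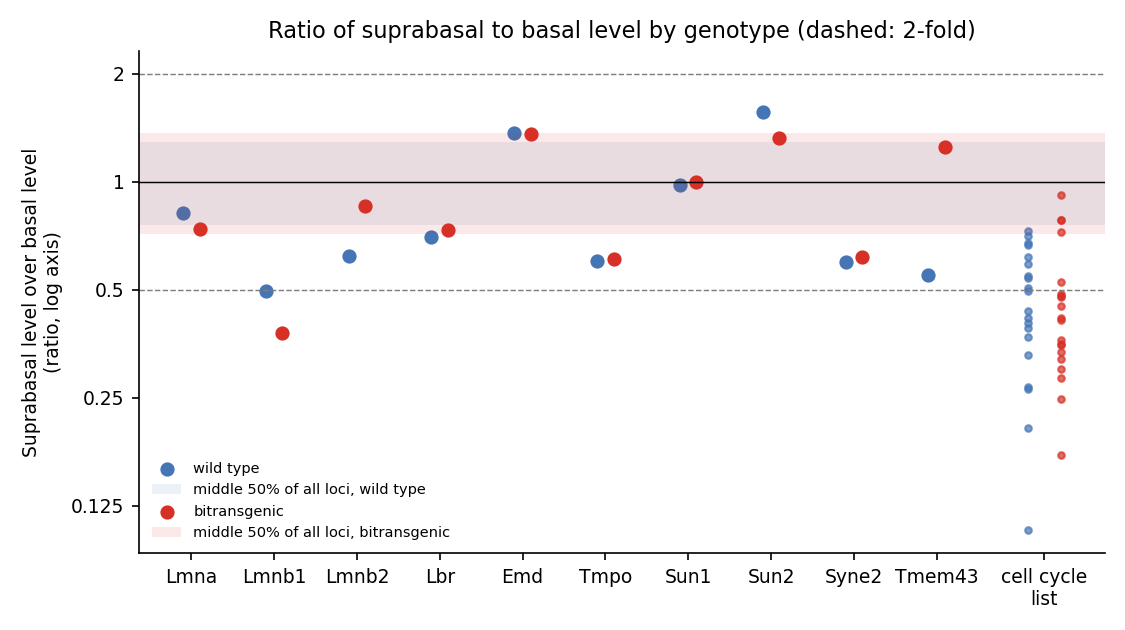
Suprabasal level over basal level (log axis) of each gene in wild type (blue) and bitransgenic cells (red), with the 20 cell cycle genes at the right, the middle 50% of all loci as bands and 2-fold as dashed lines. Tmem43 is the gene whose ratios lie furthest apart between the genotypes, 0.551 in wild type and 1.25 in bitransgenic cells.

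With these ratios known, the promoters of all 9 genes with an entry were searched for letters known from cell cycle promoters. Lmnb1, the gene with the lowest ratio, had no entry and was not searched. These were CCAAT and TTTGAA (the core of the cell cycle homology region, CHR), and also letters bound by E2F factors, all on both strands. For E2F, a promoter was counted with TTTCCCGC or with TTTGGCGC or with TTTCGCGC or with TTTGCCGC. The 250 bases before the RefSeq start of Lbr (GRCm38.p6, chr1:181842402-181842651, minus strand) are shown because they hold CCAAT, the CHR core and the GC box, which are in capitals.
Lbr promoter: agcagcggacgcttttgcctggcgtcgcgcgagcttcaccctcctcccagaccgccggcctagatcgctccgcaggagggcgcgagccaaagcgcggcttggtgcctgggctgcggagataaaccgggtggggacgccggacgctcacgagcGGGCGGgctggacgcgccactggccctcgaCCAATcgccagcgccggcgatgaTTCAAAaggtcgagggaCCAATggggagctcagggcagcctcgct
CCAAT stands here on either side of TTCAAA, which is the CHR core on the opposite strand. CCAAT was in 16, the CHR core in 6 and E2F letters in 3 of the 18 cell cycle genes with a promoter entry. Over all promoters the shares were 33.8% for CCAAT, 16% for the CHR core and 1.86% for E2F letters, counted per promoter, while a gene can have several. Of the 9 genes with an entry, 6 had CCAAT, 3 (Lbr, Tmpo and Sun2) the CHR core and 1 (Tmpo) E2F letters in at least 1 promoter. Tmpo, with a wild type ratio below that of Lbr, held all 3 motifs across its promoters. Tmem43, Syne2 and Lmnb2, also with wild type ratios below that of Lbr, held none of them. Sun2, which was higher in suprabasal cells, held CCAAT and the CHR core. A link between these motifs and the ratios was not tested. A match of letters is a description of the sequence and does not show a bound site.

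Whether the difference between bitransgenic and wild type cells was unlike in the 2 layers was tested for each gene. For this its basal log2 fold change was subtracted from its suprabasal one. For 9 of the 10 genes the difference was small against its error. Sun1 (0.025 ± 0.43), Syne2 (0.047 ± 0.54), Tmpo (0.018 ± 0.46), Emd (-0.0063 ± 0.55) and Lbr (0.063 ± 0.45) lay close to 0. Lmna had -0.14 ± 0.54, Sun2 -0.24 ± 0.59, Lmnb1 -0.39 ± 0.57 and Lmnb2 0.47 ± 0.60. Tmem43 had a difference of 1.18 ± 0.63 (interval -0.049 to 2.42), the bitransgenic level being further below wild type in basal cells. By a two-sided Wald z-test with Benjamini-Hochberg adjustment over 10579 loci, the adjusted p of Tmem43 was 0.9999 and the unadjusted p 0.0598. None of the 10 passed the adjusted threshold or an unadjusted p of 0.05, and 0.0378% of all loci (4 in number) passed the adjusted one. The call of Tmem43 in basal cells is therefore not shown to be a difference from suprabasal cells. The test takes the layers as independent, and the authors' smallest p was 5e-05 in each layer. SEs of loci at that floor may be too large, so the 4 loci may be an undercount. The narrowest interval, that of Sun1, ran from -0.82 to 0.87, so differences of that size between the layers could not be detected for these genes.

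Ratios between genes of 1 group do not depend on how the layers were scaled. The level of Lmna over the sum of Lmnb1 and Lmnb2 was 8.81 in wild type and 8.52 in bitransgenic basal cells, and 13.8 and 14.4 in suprabasal cells. The A-type to B-type ratio was thus higher in suprabasal cells in both genotypes. Lmna over Lbr varied less, from 17.8 in wild type to 19.4 in bitransgenic basal cells, and 20.7 and 19.6 in suprabasal cells. Sun2 over Sun1 was 0.600 in wild type and 0.833 in bitransgenic basal cells, and 0.956 and 1.10 in suprabasal cells. Syne2 over both SUN genes was 1.14 and 0.947 in basal cells, and 0.567 and 0.509 in suprabasal cells. Emd over Tmpo was 0.825 and 1.06 in basal cells, and 1.88 and 2.37 in suprabasal cells. Tmem43 over Emd, its binding partner, was 1.67 in wild type basal cells and between 0.398 and 0.673 in the other groups. These ratios come from 1 value per gene and group and were not tested.

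Other genes of the nuclear envelope were read from 3 lists. None of their loci was called in either layer, and their counts of loci with an unadjusted p under 0.05 are to be read against the 867 of 11290 basal and 815 of 11464 suprabasal loci given above. Of the 6 genes for processing of prelamin, all were in both tables. Prelamin A is farnesylated, cut and methylated before lamin A matures, and progerin keeps its farnesyl group. In basal cells 5 of the 6 were below wild type, with a median of -0.39, and 1 had an unadjusted p under 0.05. This was Narf, which binds prelamin A, with 16.4 and 7.63 FPKM (-1.10 ± 0.55, authors' q 0.367). Icmt, the methyltransferase, had 15.4 and 8.82 FPKM (-0.80 ± 0.49, authors' q 0.466). In suprabasal cells 4 of 6 were below wild type, with a median of -0.18, and none had such a p. Fnta, the shared alpha subunit of farnesyl and geranylgeranyl transferase, had 27.0 and 21.5 FPKM in basal and 19.3 and 13.3 FPKM in suprabasal cells. The merged locus of Churc1 and Fntb, the beta subunit, had 41.0 and 29.9 FPKM in basal and 48.9 and 80.7 FPKM in suprabasal cells.

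The list of LEM-domain, torsin and other inner membrane genes had 20 of 23 genes on 22 loci in basal cells and 19 genes on 21 loci in suprabasal cells. Their median was -0.27 in basal cells with 17 of 22 loci below wild type, and -0.16 in suprabasal cells with 15 of 21 below. In each layer 1 locus had an unadjusted p under 0.05, Tmem120a in basal cells and Tor3a, a torsin gene named after its values were seen, in suprabasal cells (8.96 and 4.57 FPKM, authors' p 0.0292 and q 0.386). Tmem120a, a nuclear envelope protein known from fat cells, had 18.5 FPKM in wild type and 5.60 FPKM in bitransgenic basal cells (-1.72 ± 0.69, authors' q 0.131), and 6.93 and 3.24 FPKM in suprabasal cells (-1.10 ± 0.73, authors' q 0.755). Lemd3, which encodes the SMAD-binding protein MAN1, was split over 3 loci. The one with the largest change had 26.4 and 3.84 FPKM in basal cells, with an SE of 3.54 on the log2 scale. Banf1, the chromatin protein that LEM domains bind, had 82.9 and 87.5 FPKM in basal and 97.1 and 121.6 FPKM in suprabasal cells. Tor1aip2, an activator of torsin ATPases, had 76.7 and 68.2 FPKM in basal and 67.1 and 62.4 FPKM in suprabasal cells.

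Of 13 other LINC genes and cytoskeletal partners, 6 were in the basal and 5 in the suprabasal table. None had an unadjusted p under 0.05. The medians were -0.17 and -0.25. The merged locus of Parp10 and Plec, the gene of plectin, which links nesprins to keratin filaments, had 129 FPKM in wild type and 88.9 FPKM in bitransgenic basal cells, and 90.4 and 60.4 FPKM in suprabasal cells (authors' q 0.511 and 0.796). The kinesin genes Kif5b and Klc1 encode a motor that binds nesprins. Kif5b had 53.3 and 69.4 FPKM in basal and 43.2 and 47.0 FPKM in suprabasal cells. Klc1 had 41.7 and 33.7 FPKM in basal and 37.7 and 22.5 FPKM in suprabasal cells. Between the layers, the median ratio of suprabasal to basal level in wild type was 1.07 for prelamin processing, 1.17 for the LEM and torsin list and 0.903 for the LINC partners, beside 0.661 for the 10 genes. In bitransgenic cells these medians were 1.12, 1.10 and 0.679, beside 0.798 for the 10 genes, so that the LINC partners lay above the 10 genes in wild type and below them in bitransgenic cells.

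**Figure D4:**
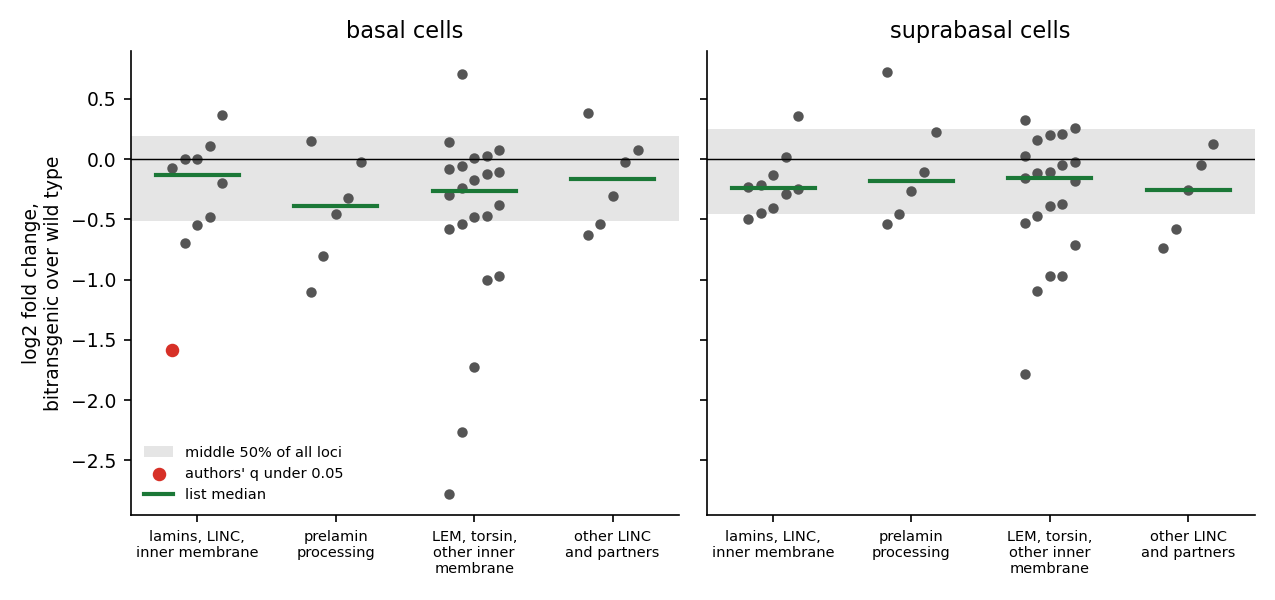
Log2 fold change, bitransgenic over wild type, of every measured locus of the 10 genes and of 3 further nuclear envelope lists in each layer, with list medians as green bars and the middle 50% of all loci in grey. Tmem43 in basal cells is the single point in red (authors' q under 0.05), and all medians lie below 0 within the grey band.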

How the data were processed

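RNA of sorted basal and suprabasal keratinocytes was sequenced, and each layer came as 1 table. TopHat, Cufflinks and mm10 are named, without versions, per the submitters' processing notes. The authors deposited group levels, taken to be FPKM because the tables have the Cuffdiff layout, since the header gives no unit. The authors also deposited log2 fold changes, a test statistic (a score, not used here) and p-values and q-values. How libraries were scaled is not given in the sources used here. The 26 loci of each table without the status OK were left out. The start of a locus was raised by 1, since that matched annotated starts for 4457 of 10386 single genes, against 122 without it.

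From these, SEs were computed as the log2 fold change over the normal quantile of the authors' p, and the layer difference was tested per gene with a Wald z-test across all genes (Python 3.11.15, scipy 1.17.1). It treats the layers as independent, although some title stems occur in both. The calculation was tested on simulated data drawn with independent layers and normal errors. That checks the arithmetic, and not whether the layers are independent or the implied SEs hold. The samples may be technical replicates, since nothing names separate animals. The genes and lists were chosen with earlier results of these data known. All 10 genes are named. From the other envelope lists the text names called genes, the 2 with the highest wild type basal level and, per layer, the 2 with the largest change among loci with at least 5 FPKM in the higher group. Marker and stress lists are given only where they stand beside a result. Alternatives were readjustment, centring, a minimum of 5 FPKM and a pseudocount of 1 FPKM. Promoter sequences are from RefSeq (GRCm38.p6), genes overlapping a locus are from GENCODE M21, and 9 of the 10 genes, all but Lmnb1, had a promoter entry.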

Additional observations from a re-analysis of the deposited data

How the results depend on the processing

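The call of Tmem43 in basal cells rests on the authors' own q. The number of the 10 genes called in basal cells was 0 after readjustment of the authors' p over all loci of the table, 0 after centring and readjustment, and 0 after readjustment over loci with at least 5 FPKM in the higher group. Over all basal loci, 186 calls became 63, 41 and 75 under these settings. The number of suprabasal calls among the 10 was 0 under each of them. The basal log2 fold change of Tmem43 was -1.48 after centring, against -1.59 as deposited, and readjustment leaves it as it is. Centring turned the sign of Lmna (0.037) and Sun2 (0.11) in basal cells, neither of which was called. Expressed loci had a median log2 fold change of -0.11 (basal) and -0.079 (suprabasal). The number of genes past 2-fold between the layers in wild type was 0 with centring and 0 with a pseudocount of 1 FPKM, since Lmnb1 stood at the edge. In bitransgenic cells it was 1 under each setting. No layer difference of the 10 genes was called under any setting run. No paired analysis was possible because the tables hold 1 value per group, and no replicate could be left out for the same reason. Depth per sample is unknown, so the implied SE is the only measure of precision.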
